A study of Tilletiopsis washingtonensis and Meira miltonrushii with 14 samples.

Results

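The transcript response of *Meira miltonrushii* was described by setting its filamentous libraries, grown on Tween40, against its yeast libraries, grown on glucose. The 6 libraries labelled as *M. miltonrushii* were taken by their labels, of 14 in the whole series. They fell into 3 filamentous and 3 yeast libraries. The other libraries came from *Tilletiopsis washingtonensis* and were not used, as the species have separate gene tables. All 6 libraries came from 1 strain, MCA 3882 (CBS12591), so they show the response of that strain. Every culture started from cells kept for 7 days in potato dextrose broth, which were then moved to Holliday's minimal medium for 3 days at 25 °C. The filamentous cultures had Tween40 at 1% as carbon source and the yeast cultures had glucose at 1%, so growth form and carbon source changed together and their effects cannot be told apart. Total RNA was extracted from the whole biomass and poly(A)+ libraries were sequenced. In such bulk RNA, fewer cells of one form in a culture and less RNA per cell cannot be told apart.

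*M. miltonrushii* belongs to the Ustilaginomycotina, a group that includes the smut fungi and in which many species switch between budding yeast cells and branching hyphae. In the corn smut *Ustilago maydis* fatty acids and Tweens are known to induce filamentous growth. Tween40 is a polyoxyethylene sorbitan ester of palmitic acid. Fungi use the fatty acid of such an ester by releasing it with lipases or esterases, breaking it down by beta-oxidation, and making sugars through the glyoxylate cycle, whereas glucose enters glycolysis directly. The files list genes by protein identifier and do not pair the identifiers with gene names, so no gene of these pathways is named here. The labelled growth forms could not be checked against marker genes for the same reason.

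Counts assigned to genes totalled 7.29 M, 15.8 M and 9.36 M in the filamentous libraries and 17.1 M, 11.5 M and 11.6 M in the yeast libraries. At these depths and scalings 1 read was worth 0.0540 to 0.158 CPM, the count of a gene scaled to a common library total. Between 7145 and 7231 of the 7452 listed genes had at least 1 count in a filamentous library, and between 7142 and 7277 in a yeast library. The forms therefore overlapped in the number of genes detected (exact permutation p = 0.7).

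Between filamentous and yeast libraries, gene shares differed by about 32.3% of counts on average. This count shift was measured for each pair of libraries as the summed absolute difference of gene shares, divided by 2, and gives the percentage of counts that would have to move to other genes to make the pair equal. It needs no scaling between libraries. For filamentous replicate 1 it was 32.8%, 31.6% and 34.4% against yeast replicates 1, 2 and 3. For filamentous replicate 2 it was 32.7%, 31.3% and 33.5%, and for filamentous replicate 3 it was 31.9%, 30.3% and 32.7%. Pairs of filamentous libraries differed by 4.94% to 6.69% and pairs of yeast libraries by 8.50% to 13.0%. Every pair of unlike forms was thus farther apart than any pair of like forms. The mean between forms exceeded the mean within forms by 24.3 percentage points (two-sided exact permutation p = 0.1, the smallest that 3 against 3 libraries allow).

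**Figure D1:**
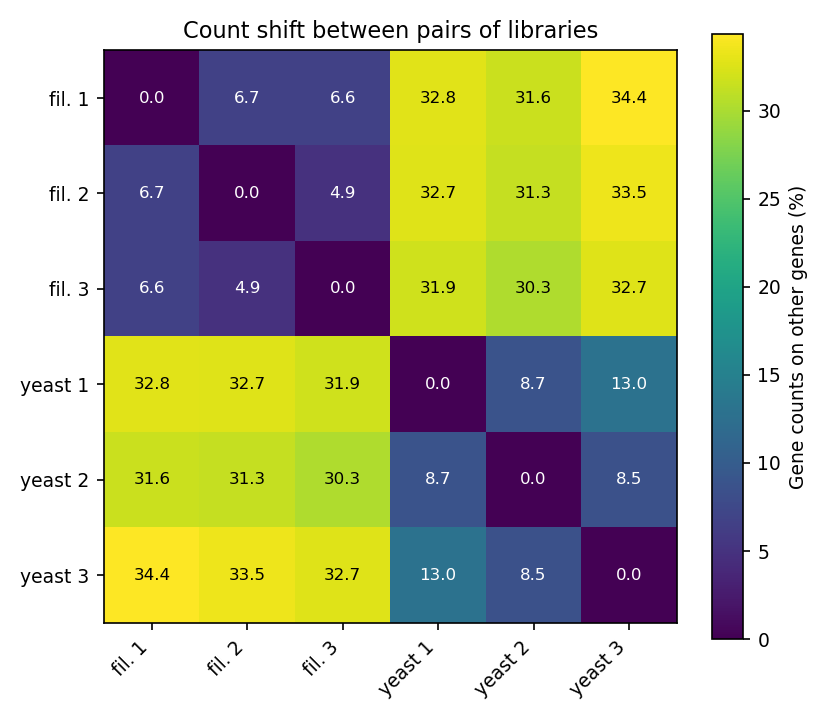
Count shift between each pair of the 6 libraries, the percentage of gene counts that must move between genes to make the pair equal. Filamentous libraries (fil.) are above and left of yeast libraries. The 9 pairs of unlike forms lie at 30.3% to 34.4%, and the 6 pairs of like forms at 4.94% to 13.0%.

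The gain was held by fewer genes than the loss. Over the 9 pairs of a filamentous and a yeast library, 43 to 88 genes made up 50% of the gain and 279 to 343 genes made up 50% of the loss. The 10 genes that gained most took 6.74 to 10.2 percentage points of all counts, and the 10 that lost most gave up 1.83 to 2.59 points. The ranges of gain and loss did not meet. Pairs of the same form also showed unequal numbers: 38 to 54 genes made up 50% of the difference in one direction and 133 to 247 in the other between filamentous libraries, and 68 to 112 and 290 to 458 between yeast libraries. The imbalance was therefore not peculiar to the change of form, while the size of the shift was larger between forms.

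**Figure D2:**
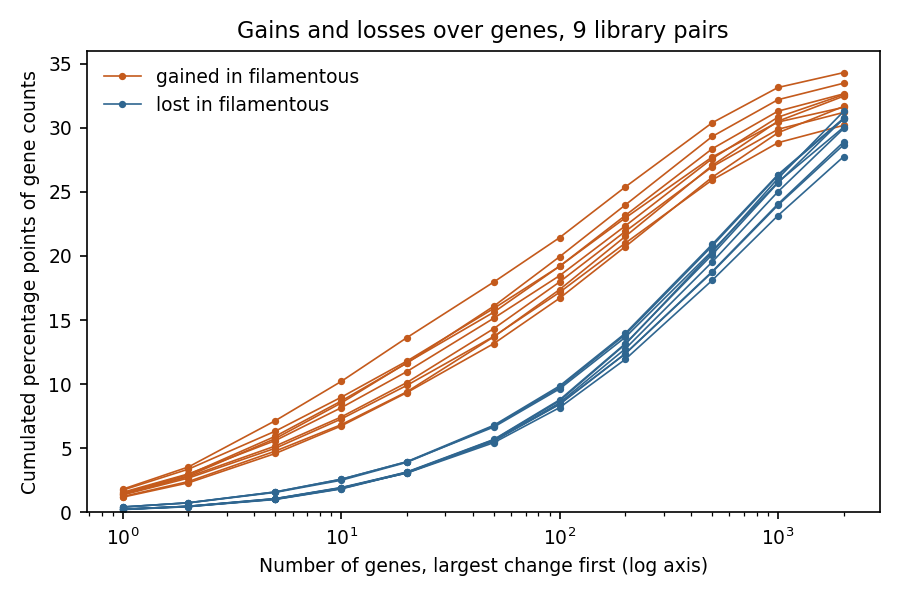
Percentage points of gene counts gained (orange) and lost (blue) in filamentous libraries, cumulated over genes from the largest change on, with 1 line for each of the 9 pairs of a filamentous and a yeast library and a log axis for the number of genes. At 10 genes the gains lie at 6.74 to 10.2 points and the losses at 1.83 to 2.59 points.

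Counts were spread over fewer genes in filamentous libraries. The effective number of genes, the exponential of the Shannon entropy of gene shares, is the number of equally abundant genes that would be as diverse as the library. It was 1209, 1302 and 1336 in filamentous libraries and 1891, 2111 and 2254 in yeast libraries. The forms did not overlap (two-sided exact permutation p = 0.1, adjusted p = 0.14 over 7 measures of libraries). The adjusted value does not pass 0.05, and with 3 against 3 libraries no p below 0.1 was possible. The filamentous values lay within a narrower range than the yeast values.

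Gene by gene, 66.1% of the 6778 genes tested passed edgeR's quasi-likelihood test, with p-values adjusted by Benjamini-Hochberg and a limit of 0.05. Genes past this limit are called here. They were 2264 genes that rose (33.4%) and 2215 that fell (32.7%) in filamentous growth. A stricter test asked whether a change was larger than 2-fold (edgeR's glmTreat on the same fit). It was passed by 817 genes that rose and 846 that fell, 12.1% and 12.5% of the genes tested. For all 1663 of these the CPM ranges of the forms were apart, as they were for 71.2% of all genes tested. The middle 50% of log2 fold changes, filamentous over yeast, lay between -0.78 and 0.76, and 1% of genes lay below -3.48 and 1% above 4.04.

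The direction of these calls depended on how libraries were scaled. The values above use TMM factors, which centre a trimmed mean of log ratios between libraries at no change. TMM assumes that most genes do not change, which was not tested, while 66.1% of genes were called here. The near-even numbers of genes higher and lower depend on this centring, and the median log2 fold change was 0.00 to 2 decimals. The TMM factors were 0.869, 0.869 and 0.886 in filamentous libraries and 1.080, 1.150 and 1.203 in yeast libraries. With library size alone the median gene moved by -0.39 on the log2 scale, and 1483 genes were then higher and 3123 lower, so that 32.2% of calls were higher against 50.5% with TMM. The test past 2-fold then gave 513 genes higher and 1348 lower. Fold changes below are on the TMM scale and are relative to the median gene.

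**Figure D3:**
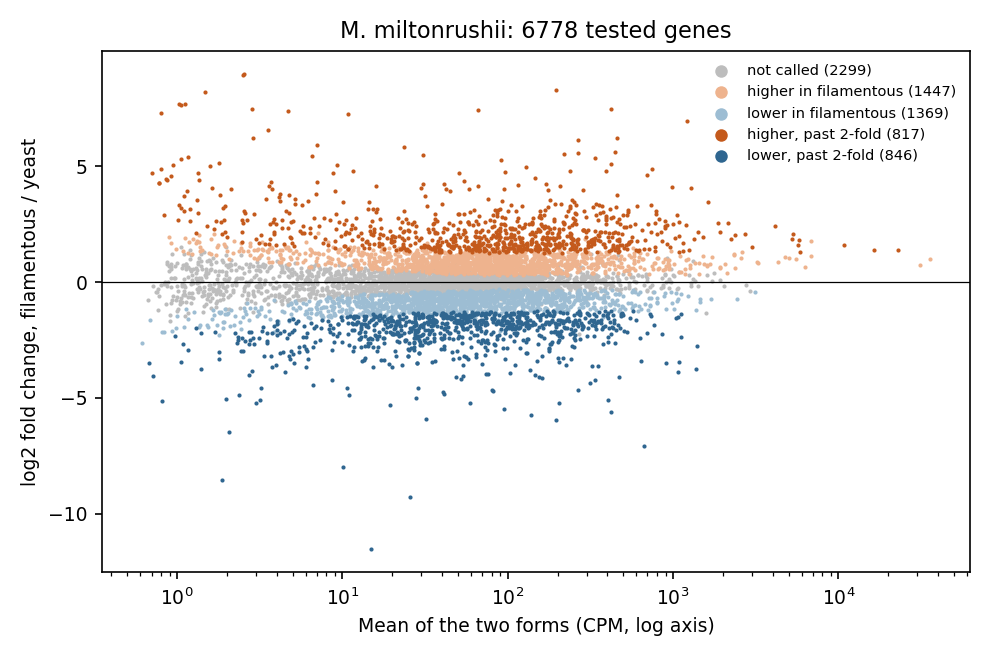
Log2 fold change, filamentous over yeast, against the mean CPM of the forms (log axis) for the 6778 genes tested, with called genes in light colours and genes past the 2-fold test in dark colours. Dark points, 817 above and 846 below the line of no change, are found among rare and abundant genes. The most abundant gene, protein 145849, is not among them.

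Most of the counts that moved belonged to genes with modest fold changes. The following sets were chosen by their change, so their shares of gene counts describe its size and test nothing. The 872 genes that rose 2- to 4-fold took 29.6% ± 0.466 of filamentous counts and 14.5% ± 0.464 of yeast counts (SD, n = 3), a gain of 15.1 points. The 266 genes that rose 4- to 8-fold gained 7.17 points, and the 978 that rose less than 2-fold gained 5.63 points. The 73 genes that rose at least 16-fold took 1.73% ± 0.114 in filamentous and 0.0767% ± 0.0198 in yeast libraries. Their median level in filamentous libraries was 22.3 CPM, and 28 of them reached 100 CPM there while 30 stayed under 10 CPM.

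Among the genes that fell, those that changed 2- to 4-fold also moved the most counts. These 924 genes took 4.38% ± 0.2003 of filamentous counts and 15.2% ± 0.511 of yeast counts (SD, n = 3). The 893 genes that fell less than 2-fold took 7.58% ± 0.172 in filamentous and 15.7% ± 0.449 in yeast libraries. The 284 genes that fell 4- to 8-fold took 0.707% ± 0.0444 in filamentous and 4.73% ± 0.2502 in yeast libraries. The 43 genes that fell at least 16-fold took 0.0271% ± 0.00267 in filamentous and 1.03% ± 0.0541 in yeast libraries. Their median yeast level was 78.4 CPM, and 18 of them reached 100 CPM there. Shares are of unscaled counts, so a share of counts falls by more, or rises by less, than the TMM-scaled fold. On this unscaled measure genes not called also took less of the counts, 18.6% ± 0.490 in filamentous and 24.1% ± 0.440 in yeast libraries.

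**Figure D4:**
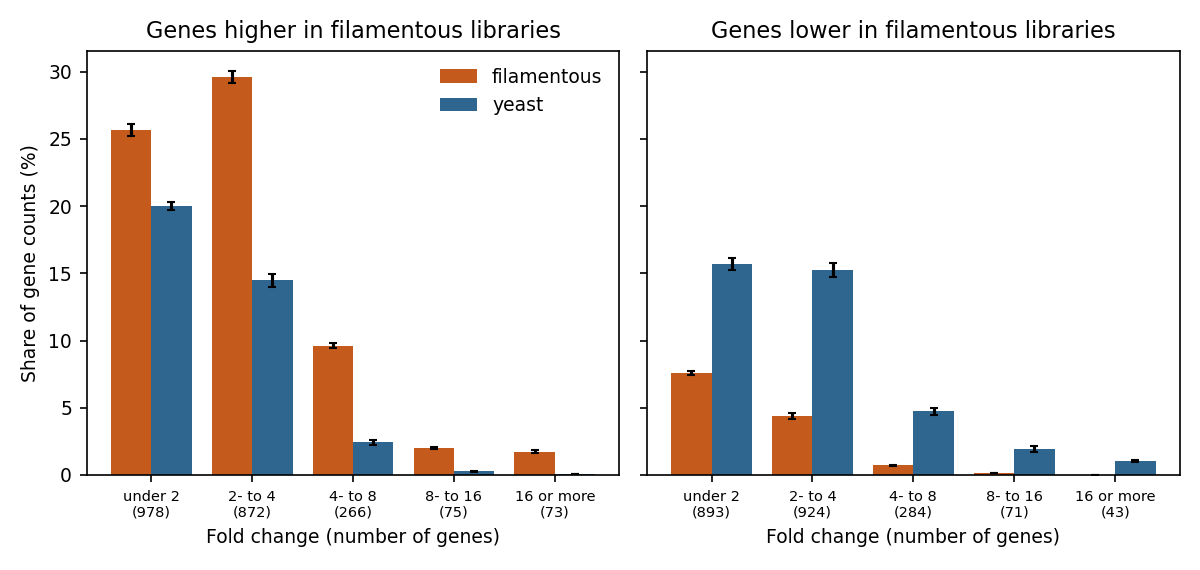
Mean share of gene counts (%) in filamentous (orange) and yeast (blue) libraries for called genes grouped by the size of their fold change, with SD over 3 libraries as error bars and the number of genes below each pair of bars. The genes that rose 2- to 4-fold stand at 29.6% in filamentous and 14.5% in yeast libraries, and those that rose at least 16-fold at 1.73% and 0.0767%.

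The 15 most abundant transcripts of each form mostly rose. All 15 of the genes with the highest mean CPM in filamentous libraries were called higher, with log2 fold changes of 0.64 to 2.44, and 9 of them passed the 2-fold test. With TMM factors, 33.4% of all genes tested were called higher and 32.7% lower, and of the 1695 most abundant of them 43.7% and 32.0%. With library size alone 14 of the 15 were called higher. Genes picked for a high filamentous level lean towards an increase by that choice. Of the 15 most abundant genes of yeast libraries, a choice that leans the other way, 13 rose and 1 fell, and with library size alone 12 rose and 2 fell. Among the 100 most abundant genes of yeast libraries 42 rose and 40 fell, and with library size alone 30 rose and 50 fell.

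Genes were named for the largest gain and loss in mean CPM among called genes whose forms did not overlap. Their calls and the separation of their forms follow from that choice, so the values below describe the size of the change. The largest gain was that of protein 145849, which ranked 1 by CPM in both forms. The gene was found at 50273, 47161 and 45667 CPM in filamentous libraries and at 27106, 23741 and 21862 CPM in yeast libraries. The fitted change was 0.98 on the log2 scale (SE 0.14, edgeR adjusted p = 9.89e-05). It did not pass the test for more than a 2-fold change (edgeR glmTreat adjusted p = 0.745).

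Protein 74005 had the next largest gain and ranked 3 in both forms. It stood at 36341, 32532 and 31358 CPM in filamentous libraries and at 14706, 12318 and 11171 CPM in yeast libraries. The fitted change was 1.39 on the log2 scale (SE 0.15, edgeR adjusted p = 1.28e-05). Replicate 1 was the highest library of each form for both of these genes. Their order rested on the scaling: by share of unscaled counts, protein 74005 took 2.92% ± 0.206 in filamentous and 1.45% ± 0.126 in yeast libraries, and protein 145849 took 4.17% ± 0.172 of filamentous and 2.76% ± 0.152 of yeast counts (SD, n = 3), so that the gain of protein 74005 was the larger.

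The largest loss was that of protein 119419. It stood at 176, 211 and 184 CPM in filamentous libraries and at 4059, 1944 and 1707 CPM in yeast libraries, and its rank was 1075 in filamentous and 19 in yeast libraries. Yeast replicate 1 was more than double the other yeast libraries, while the filamentous libraries were close together. Its log2 fold change was -3.75 (SE 0.33, edgeR adjusted p = 1.16e-05), and -3.28 without yeast replicate 1. Protein 138350 stood at 478, 287 and 303 CPM in filamentous libraries and at 3339, 2310 and 1619 CPM in yeast libraries. The log2 fold change was -2.77 (SE 0.30, edgeR adjusted p = 2.95e-05). Replicate 1 was again the highest library of each form.

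**Figure D5:**
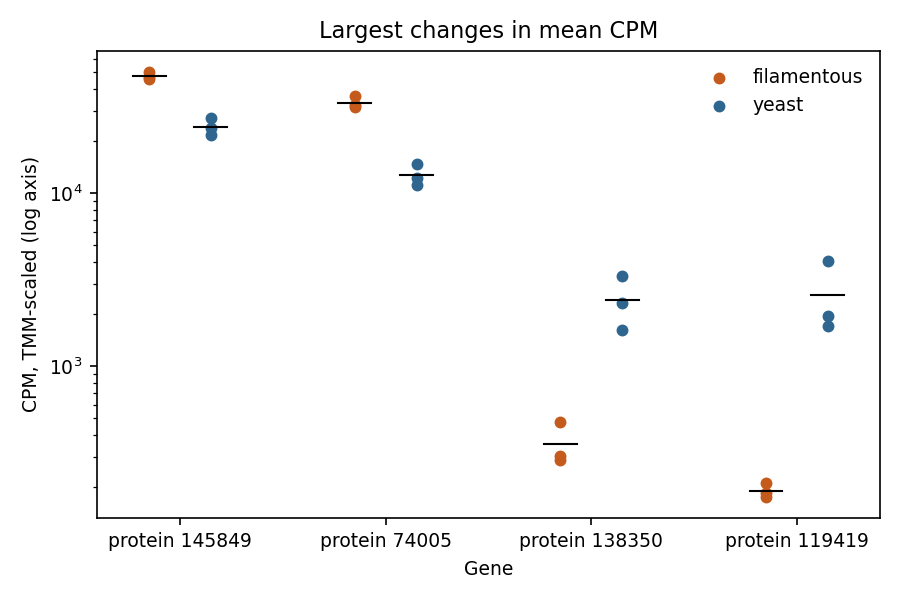
TMM-scaled CPM (log axis) of the 4 named genes in each library, with filamentous libraries (orange) left of yeast libraries (blue) and a bar at each mean. Proteins 145849 and 74005 are at 31358 CPM or more in filamentous and at 27106 CPM or less in yeast libraries, and proteins 138350 and 119419 are at 478 CPM or less in filamentous and at 1619 CPM or more in yeast libraries.

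No tested gene crossed the whole range of abundance, from under 1 CPM in 1 form to at least 1000 CPM in the other. Tested genes were put into classes of under 1, 1 to 10, 10 to 100, 100 to 1000 and at least 1000 CPM by their mean in each form. The class was the same in both forms for 4778 genes, higher in filamentous libraries for 1025 and lower for 975. Between 1 to 10 CPM and 100 to 1000 CPM, 10 genes were higher in filamentous libraries and 9 lower. Between under 1 CPM and 10 to 100 CPM, 11 were higher and 9 lower. From under 1 CPM in yeast libraries, 1 gene reached 100 to 1000 CPM in filamentous libraries. At least 1000 CPM was reached by 137 genes in filamentous and by 92 in yeast libraries, and 57 reached it in both. This difference rested on the TMM factors: with library size alone 110, 124 and 118 genes reached 1000 CPM in filamentous libraries and 125, 115 and 114 in yeast libraries. Of the 137, 3 were under 100 CPM in yeast libraries, and of the 92, 1 was under 100 CPM in filamentous libraries. These 4 genes were singled out after their values were seen, and the files pair no name with them.

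The first of the 3 stood at 2657, 2476 and 2102 CPM in filamentous libraries and at 19.8, 14.6 and 24.3 CPM in yeast libraries (log2 fold change 6.94, SE 0.24, edgeR adjusted p = 6.03e-09). The second stood at 1376, 1798 and 1162 CPM in filamentous and at 30.1, 29.6 and 89.4 CPM in yeast libraries, where replicate 3 was the highest (log2 fold change 4.86, SE 0.53, edgeR adjusted p = 0.000192). The third stood at 1264, 1314 and 1409 CPM in filamentous and at 56.8, 47.1 and 55.3 CPM in yeast libraries. In the other direction, 1 gene stood at 13.3, 9.77 and 6.39 CPM in filamentous and at 1354, 1483 and 1141 CPM in yeast libraries (log2 fold change -7.09, SE 0.27, edgeR adjusted p = 1.67e-08).

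The number of genes above a fixed level differed between forms in ways that depended on the scaling. At least 100 CPM was reached by 2042, 2080 and 2087 genes in filamentous libraries and by 1880, 1946 and 1920 genes in yeast libraries with TMM factors. With library size alone the order was the reverse, at 1806, 1831 and 1873 genes in filamentous and 2019, 2232 and 2298 in yeast libraries. At least 10 CPM was reached by 5611, 5610 and 5613 genes in filamentous and by 5740, 5765 and 5731 genes in yeast libraries, and this order was kept with library size alone. Exact permutation p was 0.1 for 10, 100 and 1000 CPM and 0.4 for 1 CPM, and adjusted over the 4 levels it was 0.133 or more. With 3 against 3 libraries p cannot fall below 0.1, so no level could have passed 0.05.

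Transcripts found in 1 form alone were rare. Reads from filamentous but from no yeast libraries were seen for 55 genes, which held 0.00255% ± 0.000315 of filamentous counts (SD, n = 3). The reverse was seen for 85 genes, which held 0.00519% ± 0.000574 of yeast counts. With every library thinned to 7.29 M counts the numbers were 77 and 89 genes, closer together than 55 and 85. The 55 and 85 genes were chosen from the counts, and no test was made. Of them, 39 and 64 had fewer than 10 counts in all. The filter on low counts was passed by 7 and 2 of them, through the form where they had counts. A count of 0 over a form allows up to 3 counts, or 0.0745 unscaled CPM in yeast and 0.0925 unscaled CPM in filamentous libraries. These genes were not detected in the other form at this depth, and absence cannot be told from a level below that floor. One gene made up 63.7% of the 2074 counts of the yeast set. In the filamentous set the highest gene held 141 of 804 counts.

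For part of the genes that were not called, a change above a modest size on the TMM scale lay outside the interval. Of 2299 genes not called, 878 had a 95% interval of the fold change, taken gene by gene, within 1.5-fold in both directions, and 1768 within 2-fold. The other 531 had wider intervals, which reached past 2-fold in at least 1 direction. The median level was 77.3 CPM among the 878 genes and 4.30 CPM among the 531. All these intervals take the TMM factors as exact, so the bounds hold on that scale alone. The median log2 fold change of tested genes was -0.39 with library size alone and -0.14 with upper-quartile factors. Calls also became more common with abundance: when genes were cut by mean CPM into 4 groups of like size, 55.3%, 64.3%, 69.0% and 75.6% were called, with the rarest genes first. The median SE of the log2 fold change was 0.30, 0.18, 0.15 and 0.15 in the same order, and the part of this precision in the shares called was not tested.

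Yeast libraries varied more among themselves than filamentous libraries. The biological coefficient of variation that edgeR estimates over all genes was 13.5% in filamentous and 21.2% in yeast libraries. Among the 5833 tested genes whose mean reached 10 CPM, 27 to 64 differed at least 2-fold between pairs of filamentous libraries and 92 to 356 between pairs of yeast libraries. Pairs of unlike forms had 2093 to 2416 such genes. The pair of yeast replicates 1 and 3 was the farthest apart, with 233 genes at least 2-fold higher in replicate 1 and 123 higher in replicate 3, and yeast replicate 2 lay between them on the second principal component. That component took 5.95% of the variance of log2 CPM, and the first took 87.6% and held the 2 forms apart. What set the yeast libraries apart from each other was not tested.

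Part of the genes that varied among yeast libraries were also called between forms. Of the 233 genes higher in yeast replicate 1, all filamentous libraries were above all yeast libraries for 69 genes and below them for 46, and the filamentous mean lay within the yeast range for 98. Of the 123 genes higher in yeast replicate 3, the numbers were 69, 17 and 25. Of all genes tested, 71.2% had forms that did not overlap in either direction. Of these sets 113 and 90 genes were called between forms, 48.5% and 73.2%, while 66.1% of all genes tested were called. Both sets were picked for a wide spread among yeast libraries, and that choice itself bears on overlap and on calls. They also leave out rarer genes, whose mean stayed under 10 CPM, whereas the 66.1% and 71.2% include them. The shares of these sets therefore cannot be weighed against those of all genes tested. Without yeast replicate 1 the test called 2298 genes higher and 2308 lower, and without yeast replicate 3 it called 2288 and 2282.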

How the data were processed

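Growth forms were taken from the labels. Nothing in the labels says that the 3 libraries of a form are separate cultures; their spread, and every p-value resting on it, may be technical. Tools listed in the submitters' processing notes, with no role or order, are DESeq2 1.20.0, HTSeq 0.7.0, TopHat2 2.1.1 and cutadapt 1.13. Build, annotation and strandedness of the counting were not given in the sources used here, so reads of overlapping, antisense or near-identical genes may be misassigned. The deposited raw table holds whole-number read counts per protein identifier. The deposited normalized table holds a signal obtained by dividing raw counts by a constant for each library (largest relative deviation 5.0e-15), and was used only in limma-trend alternatives on log2(value + 1) and log2(value + 10).

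Unassigned reads and the line of sums were left out of library sizes and tests; genes held 81.8% to 84.2% of listed reads, lines without a feature 14.3% to 16.2%. No replicate pair was within sampling noise (chi-square per degree of freedom 16.7 to 114.5). The count test was run in R 4.3.3 with edgeR 4.0.16 on the deposited counts: filterByExpr, TMM, a robust quasi-likelihood model with growth form as its 1 term, and Benjamini-Hochberg adjustment. The 674 genes filtered out held 0.0180% of counts. SE is the absolute log2 fold change divided by the square root of F. CPM uses TMM-scaled totals, and log2 CPM a prior count of 2. The script was tested on simulated data with few changed genes, as many up as down, and equal variation in both forms. That setting differs from these data and cannot check the scaling. Intervals and floors cover counting error only where they rest on counts of reads. Named genes were the 2 called genes with the largest gain and the 2 with the largest loss in mean CPM among those whose forms did not overlap. The comparison, groups and rules were chosen with earlier results of these data known. Gene lists by product were not run, as identifiers have no names here. Python 3.11.15 with numpy 2.4.6 and pandas 2.3.3 was used for the remaining values. Alternatives were other scalings and filters, DESeq2 1.42.0, limma 3.58.1, a replicate block and leaving out each library.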

Additional observations from a re-analysis of the deposited data

Results flagged for a closer look

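Reads outside the gene counts were also compared, as a signal that the comparison of genes does not use. Reads with no annotated feature were 15.4%, 16.2% and 15.03% of listed reads in filamentous libraries (mean 15.5%) and 14.7%, 14.4% and 14.3% in yeast libraries (mean 14.5%). Reads with more than 1 alignment were 1.85%, 2.01% and 1.97% in filamentous libraries (mean 1.94%) and 1.77%, 1.68% and 1.55% in yeast libraries (mean 1.66%). For both, all filamentous libraries were above all yeast libraries (two-sided exact permutation p = 0.1, the smallest that 3 against 3 allow, adjusted p = 0.14 over 7 measures). Groups of 3 libraries were not searched for single outlying libraries.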

How the results depend on the processing

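Scaling was the choice that mattered most. With library size alone 1483 genes were called higher, and 513 and 1348 passed the 2-fold test as higher and lower. The filamentous minus yeast number of genes then turned to -38.3 at 1 CPM, -346 at 100 CPM and -0.667 at 1000 CPM, against 44.3, 154 and 45 with TMM. Upper-quartile factors moved the median log2 fold change by -0.14 and gave 1970 genes higher and 2516 lower. Under the other scaling, filters and tests, DESeq2 and limma on the deposited normalized values included, 2028 to 2335 genes were called higher and 1991 to 2279 lower. Leaving out 1 library gave 2014 to 2298 higher, 2021 to 2308 lower, 718 to 840 and 739 to 866 past 2-fold, and a count shift difference of 23.1 to 25.6 points. It gave differences of 14 to 82.5 genes at 1 CPM, -141 to -124 at 10 CPM, 137 to 170 at 100 CPM and 38.7 to 52.2 at 1000 CPM. The 4 named genes kept their direction and call under all alternatives run. With at most 3 counts in the other form in place of 0, genes of 1 form numbered 107 (filamentous) and 145 (yeast), with 0.00895% and 0.0176% of counts; thinned to 7.29 M counts, the filamentous share was 0.00396%. The replicate numbers of the titles differ from those of the descriptions, and no label says what a number stands for. With the title's number as a replicate block 2335 genes were higher and 2250 lower. Deviations of same-numbered libraries correlated at 0.230, -0.090 and 0.182, so the numbers were not taken to pair them, and 2 of the 3 filamentous libraries correlated best with their own number, a hint from the data only. The smallest library, at 7.29 M counts, limits what can be detected among rare transcripts.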

Other observations

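Log2 fold changes of genes whose protein identifiers differ by 1 correlated more than those of identifiers a little farther apart. Over 1083 pairs of tested genes with consecutive identifiers, the log2 fold changes correlated at Pearson 0.31 and Spearman 0.149, a correlation across genes, which are not independent replicates and share all 6 libraries. Over pairs of identifiers 2, 3, 5 and 10 apart, 984 to 1041 pairs each, Pearson values were 0.036, 0.074, 0.030 and 0.0014 and Spearman values -0.0036, 0.067, 0.027 and 0.021. Of consecutive pairs in which both genes were called, 284 moved in the same direction and 220 in opposite directions, so that 56.3% moved in the same direction. At differences of 2, 3, 5 and 10 this share was 46.7%, 53.1%, 51.0% and 51.5%. What consecutive identifiers stand for is not given in the sources used here, and shared reads between such genes were not tested.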
